A study of Mus musculus with 2 samples.

Results

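The enzymes that make and break down prostaglandins and leukotrienes were examined through 8 genes, Ptgs1, Ptgs2, Ptges, Hpgd, Alox5ap, Alox5, Ltc4s and Alox15, chosen by symbol out of the 28692 genes in the tables. Their transcripts were counted as unique molecular identifiers (UMIs) in cells sorted by threshold gates on marker UMIs per 10000 UMIs of a cell. The AT2 gate (alveolar type 2 cells, at least 500 Sftpc UMIs) held 2516 NAPH and 1800 Control cells, and was split at 20 Lrg1 UMIs into Lrg1-high cells (980 and 24) and Lrg1-low cells (1536 and 1776). The secretory gate (at least 1000 Scgb1a1 UMIs) held 197 NAPH and 757 Control cells, and the ciliated gate (at least 10 UMIs of Foxj1, Ccdc153 and Tmem212 together) 204 and 193. The myeloid gate (at least 2 UMIs of Ptprc, Coro1a and Cd52 in the cell, and no other gate) held 505 NAPH and 447 Control cells, which left 167 and 25 cells in no gate.

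The lungs came from adult C57BL/6 mice, an inbred strain, in both groups, and Epcam-positive cells, which are mainly epithelial, were purified by flow cytometry. One group was injured, by an agent written only as NAPH in the labels, and the other is labelled Control. Each group was 1 library of a droplet 3' kit, of 3573 NAPH and 3211 Control cells after filtering. Not given in the sources used here are the dose, the interval between injury and harvest, and how many animals went into each library.

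Prostaglandins and leukotrienes are made from arachidonic acid that phospholipases cut from membranes. The cyclooxygenases Ptgs1 and Ptgs2 turn it into prostaglandin H2, Ptges turns that into prostaglandin E2, and Hpgd inactivates prostaglandins. Alox5, helped by the membrane protein Alox5ap, starts leukotriene synthesis, Ltc4s attaches glutathione to form leukotriene C4, and Alox15 is a lipoxygenase of another branch. In lung, prostaglandin E2 is known as a product of epithelium and mesenchyme, and leukotrienes as products of macrophages, mast cells and eosinophils.

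The 3 promoters below are shown because Ptgs1 and Ptges were both higher in NAPH AT2 cells. Ptgs2 differed less there and was higher in AT2 cells with Areg and Sprr1a UMIs. They are RefSeq windows on build GRCm38.p6, from 250 bases before to 50 after the annotated start, written 5' to 3' on the gene's strand.
Ptgs1 promoter, chr2:36230176-36230475, plus strand: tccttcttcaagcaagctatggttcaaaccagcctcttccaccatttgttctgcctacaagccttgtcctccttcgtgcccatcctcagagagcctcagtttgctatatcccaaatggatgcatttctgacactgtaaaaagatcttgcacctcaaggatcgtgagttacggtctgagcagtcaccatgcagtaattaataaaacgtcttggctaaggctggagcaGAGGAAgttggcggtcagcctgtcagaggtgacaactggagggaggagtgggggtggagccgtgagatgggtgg
Ptges promoter, chr2:30903248-30903547, minus strand: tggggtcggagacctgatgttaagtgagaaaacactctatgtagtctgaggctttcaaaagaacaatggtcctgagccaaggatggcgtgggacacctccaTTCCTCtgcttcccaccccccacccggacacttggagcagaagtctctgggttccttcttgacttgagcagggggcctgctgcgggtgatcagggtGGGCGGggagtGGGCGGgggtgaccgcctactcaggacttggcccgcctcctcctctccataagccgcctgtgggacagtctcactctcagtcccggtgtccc
Ptgs2 promoter, chr1:150099781-150100080, plus strand: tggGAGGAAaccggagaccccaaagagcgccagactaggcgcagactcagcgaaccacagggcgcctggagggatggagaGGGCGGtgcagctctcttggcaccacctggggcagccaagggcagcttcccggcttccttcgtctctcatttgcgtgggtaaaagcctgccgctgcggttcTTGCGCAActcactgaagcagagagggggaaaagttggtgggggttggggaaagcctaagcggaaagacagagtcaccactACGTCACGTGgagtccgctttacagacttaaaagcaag
Capitals mark matches on either strand to 9 motifs. GAGGAA, the core bound by ETS factors such as PU.1 (TTCCTC on the other strand), was found once in each of the 3 windows and lies in 28.3% of the 32851 promoters of the table. GGGCGG, the GC box, was found 1 time in Ptgs2 and 2 times in Ptges and lies in 35.7%. Ptgs2 also held the C/EBP palindrome TTGCGCAA, which 0.183% of promoters hold. It held the CREB motif ACGTCA (7.51%) overlapping the E-box CACGTG (7.15%) as well, and none of these was found in Ptgs1 or Ptges. No match was found in the 3 windows to the TATA box TATAAA (13.6%), the AP-1 motif TGANTCA (7.81%), the STAT motif TTCNNNGAA (8.30%) or the NF-kappaB site (1.47%). A match describes letters in these windows and not a bound site.

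The genes lie at chr2:36230426-36252272 (Ptgs1), chr2:30889471-30929863 (Ptges), chr1:150100031-150108227 (Ptgs2) and chr8:56294585-56321043 (Hpgd) in GENCODE vM21 on GRCm38, and the Ptges window above lies inside its gene model. The others lie at chr5:149264767-149288153 (Alox5ap), chr6:116410077-116461178 (Alox5), chr11:50236461-50238616 (Ltc4s) and chr11:70344152-70352031 (Alox15), and all 8 are protein-coding. Annotated genes overlap Ptgs1, Ptges, Hpgd, Alox5ap and Ltc4s, and the use of strand in counting was not given in the sources used here, so reads of overlapping genes may be included.

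The libraries held 38497783 (NAPH) and 41699755 (Control) UMIs, with medians of 9417 and 8303.5 per barcode. The summed level of the 7 AT2 markers was 257559 CPM (UMIs of a gene per 1000000 UMIs of the cells summed) in the NAPH and 288921 CPM in the Control AT2 gate, and every marker was detected. Most of these sums, 204841 CPM in NAPH and 238369 CPM in Control, was Sftpc, the gene that sets the gate. The cells are labelled as lung epithelium, and the myeloid gate rests on leukocyte genes: in NAPH it also held 16 cells led by T and NK markers and 6 led by B cell markers. Of 7 mast cell and basophil markers, at most 1 was detected in any of the 4 gates of either library, and of 8 tuft cell markers 2 to 6 were detected, with summed levels of 3.65 to 39.96 CPM in the epithelial gates and 136 and 156 CPM in the NAPH and Control myeloid gates. Of these 8, Trpm5 and Sh2d6 were at 0 in all 4 gates. With 1 library per group no difference between conditions could be tested, and every value below compares 2 libraries. Intervals in parentheses are exact 95% intervals, Poisson for levels and ratios and binomial for shares, and cover counting error only. For a value of 0, the limit given is instead the share or level that 3 counts would have. Levels are CPM of the cells named, and ratios are divided by the median ratio of all genes compared in the same cells (1.07 in AT2, 1.52 in secretory, 1.08 in ciliated and 0.975 in myeloid cells; 0.09, 0.61, 0.11 and -0.04 on the log2 scale). A gene was compared when it had at least 10 UMIs over both groups and an expected count of at least 3 in each.

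The cyclooxygenase Ptgs1 lay mainly in AT2 cells in these libraries, and the prostaglandin E synthase Ptges was highest in AT2 cells but shared with secretory cells. Both were about 4-fold higher in the NAPH AT2 cells. Ptgs1 had 7222 UMIs in NAPH AT2 cells, 289 CPM (283 to 296), against 991 UMIs and 69.5 CPM (65.2 to 73.9) in Control AT2 cells. The ratio was 3.90 (3.65 to 4.17). AT2 cells held 96.8% of all Ptgs1 UMIs of the NAPH library and 83.0% of those of the Control library. After every cell was thinned to 3500 UMIs, 53.2% (51.2 to 55.2) of NAPH and 21.3% (19.5 to 23.3) of Control AT2 cells carried a Ptgs1 UMI, and before thinning 79.6% and 37.7% did. In myeloid cells the thinned shares were 3.76% in NAPH and 0.671% in Control, at median depths of 7925 and 7930 UMIs. Ptgs1 was uneven within this gate in NAPH, as given below. Free RNA and RNA of the myeloid cells themselves were not told apart there.

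Ptges, the inducible terminal synthase of prostaglandin E2, followed Ptgs1 in AT2 cells. AT2 cells held 89.4% of its UMIs in NAPH and 59.1% in Control, and secretory cells 7.42% and 40.1%. Ptges had 1674 UMIs and 67.0 CPM (63.9 to 70.3) in NAPH AT2 cells, against 205 UMIs and 14.4 CPM (12.5 to 16.5) in Control AT2 cells, a ratio of 4.37 (3.78 to 5.08). Both ratios lay above the 95th percentile of all genes compared in AT2 cells, which was 1.01 on the log2 scale, with 1.96 for Ptgs1 and 2.13 for Ptges. Of the 8 genes, 6 could be compared in AT2 cells: 2 were at least 1.5-fold higher, beside 10.2% of the 13162 genes compared, and 1, Hpgd with 9 and 10 UMIs, was at least 1.5-fold lower, beside 9.52%. The interval of Hpgd, 0.173 to 1.32, included 1. The median log2 ratio of the 6 was 0.26, against 0 for all genes by construction.

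Ptgs2, the inducible cyclooxygenase, differed less in AT2 cells. It had 497 UMIs and 19.9 CPM (18.2 to 21.7) in NAPH, against 191 UMIs and 13.4 CPM (11.6 to 15.4) in Control, a ratio of 1.39 (1.18 to 1.65), short of 1.5-fold. Its UMIs were unevenly spread: the highest single cell held 25 UMIs in NAPH and 6 in Control. After thinning, 5.21% (4.37 to 6.15) of NAPH and 3.33% (2.55 to 4.27) of Control AT2 cells carried one.

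**Figure D1:**
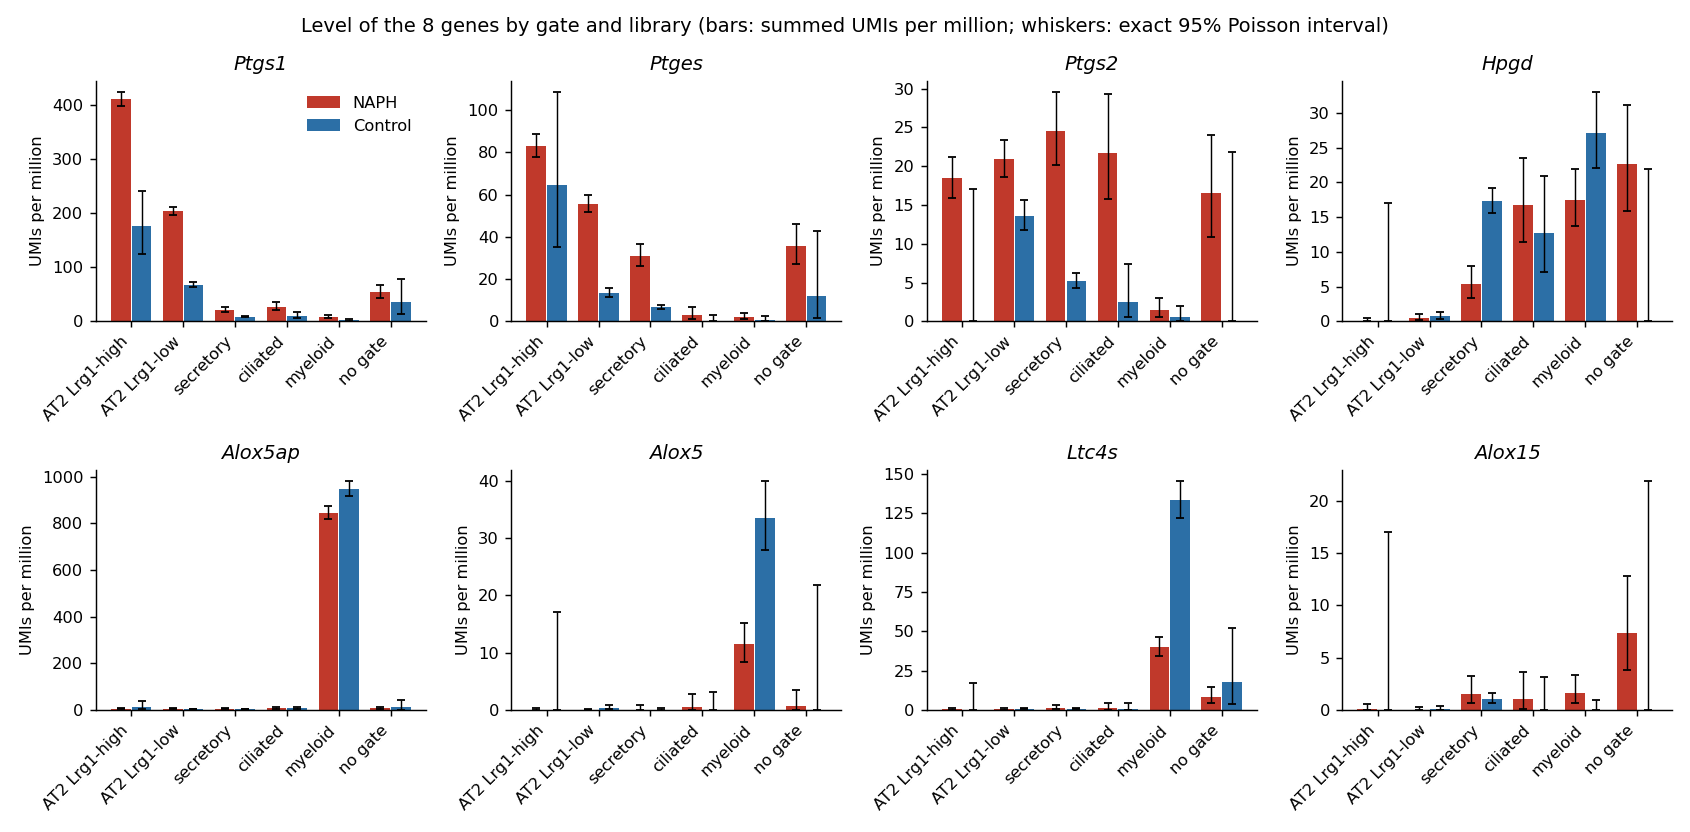
Level of each of the 8 genes, in CPM of the gate, by gate (x axis) and library (NAPH left, Control right), with exact 95% Poisson intervals. Ptgs1 and Ptges were highest in AT2 cells, and Alox5ap, Alox5 and Ltc4s in myeloid cells.

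**Figure D2:**
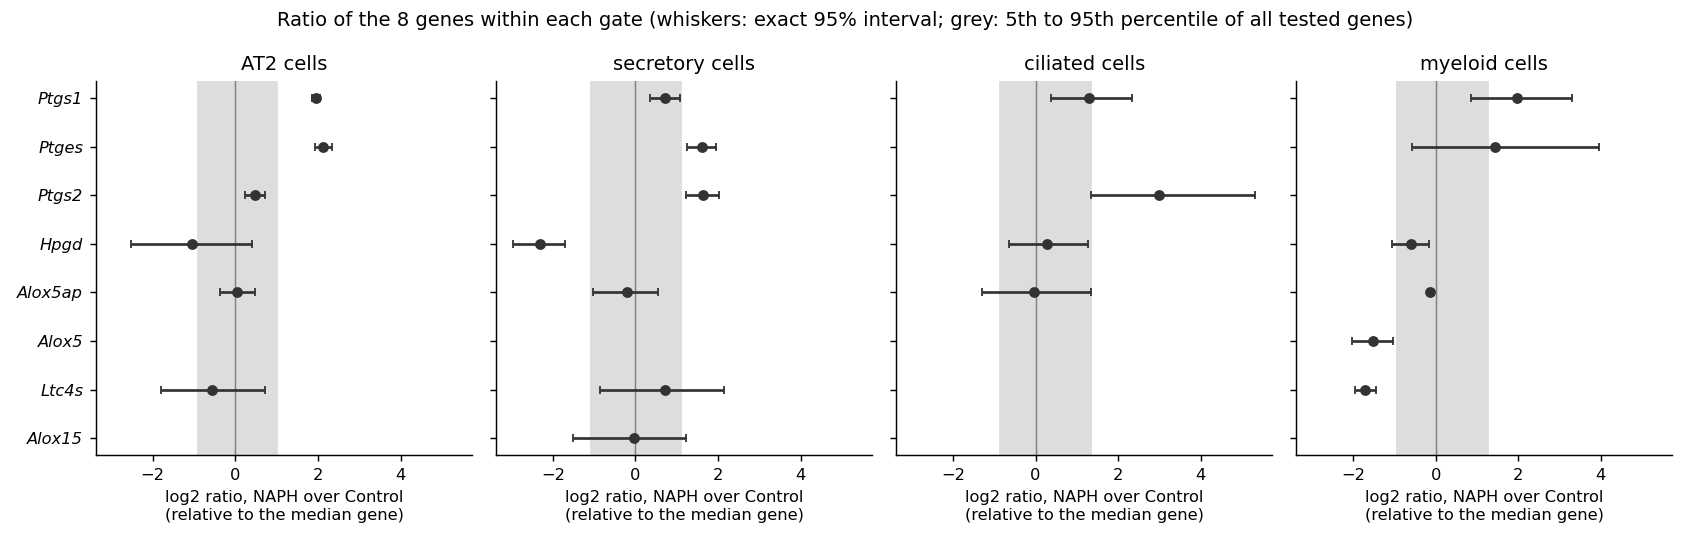
NAPH over Control ratio of each gene within 4 gates, on a log2 axis relative to the median gene, with exact 95% intervals and, in grey, the 5th to 95th percentile of all genes compared in the gate. Genes not compared or with no UMIs in a library have no point. In AT2 cells Ptgs1 and Ptges lie right of the grey band and Hpgd left of it. In secretory cells Ptgs2 and Ptges lie right of it and Hpgd left. Ptgs2 lies right of it in ciliated cells, and in myeloid cells Ptgs1 and Ptges lie right and Alox5 and Ltc4s left.

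Within AT2 cells, Ptgs1 and Ptges followed the level of Lrg1, a secreted glycoprotein of the acute phase response, in both libraries. In NAPH, Ptgs1 was at 410 CPM (398 to 423) in Lrg1-high and 204 CPM (197 to 212) in Lrg1-low cells, a ratio of 2.12 (2.02 to 2.22). In Control the values were 175 CPM (124 to 241) in the 24 Lrg1-high cells and 67.8 CPM (63.6 to 72.3) in Lrg1-low cells, a ratio of 2.64 (1.85 to 3.65). Of the genes compared within NAPH, 4.97% were at least 1.5-fold higher and 10.2% lower in Lrg1-high cells, and within Control 12.8% and 18.7%. Of the 8 genes this held for 3 of 5 compared in NAPH (Ptgs1, Ptges and Ltc4s) and for both of those compared in Control (Ptgs1 and Ptges). The Ptges call in NAPH is lost with plain CPM (1.49) and with Sftpc and Scgb1a1 left out of the totals (1.48). Of the 8, none of those compared was at least 1.5-fold lower. Ltc4s rested on 7 UMIs in Lrg1-high and 7 in Lrg1-low cells, with an interval of 0.449 to 5.01.

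Ptges was at 83.1 CPM in NAPH Lrg1-high and 55.7 CPM in NAPH Lrg1-low cells, a ratio of 1.57 (1.43 to 1.73). In Control it was at 64.6 CPM in Lrg1-high cells, on 14 UMIs, and 13.6 CPM in Lrg1-low cells, a ratio of 4.85 (2.60 to 8.33). These intervals do not overlap, so the Lrg1 split separated Ptges by more in Control than in NAPH as far as counting error goes. The split also separated Lrg1 itself by more in Control, at 2862 against 150 CPM, than in NAPH, at 4364 against 704 CPM. The part of this in the Ptges ratios was not tested, and the difference between animals was not measured.

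Along 6 bins of Lrg1 level in NAPH, Ptgs1 was at 99.4, 138, 224, 306, 358 and 473 CPM. In the first 5 of these bins in Control it was at 55.2, 75.7, 113, 129 and 186 CPM, and the top bin held 3 cells. Ptgs1 was thus higher in NAPH than in Control within each of the 5 bins, with the intervals apart in all 5.

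Ptges gave 31.5, 45.7, 64.3, 70.2, 72.9 and 95.6 CPM in NAPH, and 7.71, 16.7, 33.4, 51.5 and 68.9 CPM in the first 5 bins in Control. Its libraries lay apart at the low end and came together towards the top: the intervals were apart in the first 3 bins and overlapped in the fourth and the fifth. Ptgs2 showed no such climb, at 15.9 to 26.1 CPM across the NAPH bins and at 15.8, 11.6, 7.16, 7.02 and 0 CPM across the first 5 Control bins, the last 3 of which held 6, 3 and 0 UMIs. Its NAPH ratio of Lrg1-high to Lrg1-low cells, 0.928 (0.771 to 1.12), included 1. None of the 191 Ptgs2 UMIs of Control AT2 cells lay in a Lrg1-high cell, where 3 counts would give 13.8 CPM.

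Within each Lrg1 class Ptgs1 was higher in NAPH than in Control, at 2.13 (1.55 to 3.01) in Lrg1-high and 2.76 (2.56 to 2.97) in Lrg1-low cells. For Ptges the NAPH over Control ratio was 3.76 (3.20 to 4.42) in Lrg1-low cells and 1.17 (0.694 to 2.15) in Lrg1-high cells. The classes did not hold Lrg1 itself equal. Lrg1 was at 4364 CPM in NAPH and 2862 CPM in Control Lrg1-high cells, and at 704 and 150 CPM in Lrg1-low cells. The part of this difference in the ratios was not tested. Of all genes compared in Lrg1-high cells, 18.7% were at least 1.5-fold higher and 13.8% lower in NAPH, and of those in Lrg1-low cells 9.54% and 8.3%. Of the 8 genes, 1 of 3 compared was higher in Lrg1-high cells, and 2 of 6 were higher and 1 (Ltc4s, on 7 and 11 UMIs) lower in Lrg1-low cells. Median depth was higher in NAPH for both classes, at 10273 against 9360.5 UMIs in Lrg1-high and 9111 against 7672 in Lrg1-low cells, and its part in the ratios was not tested beyond the thinned values.

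**Figure D3:**
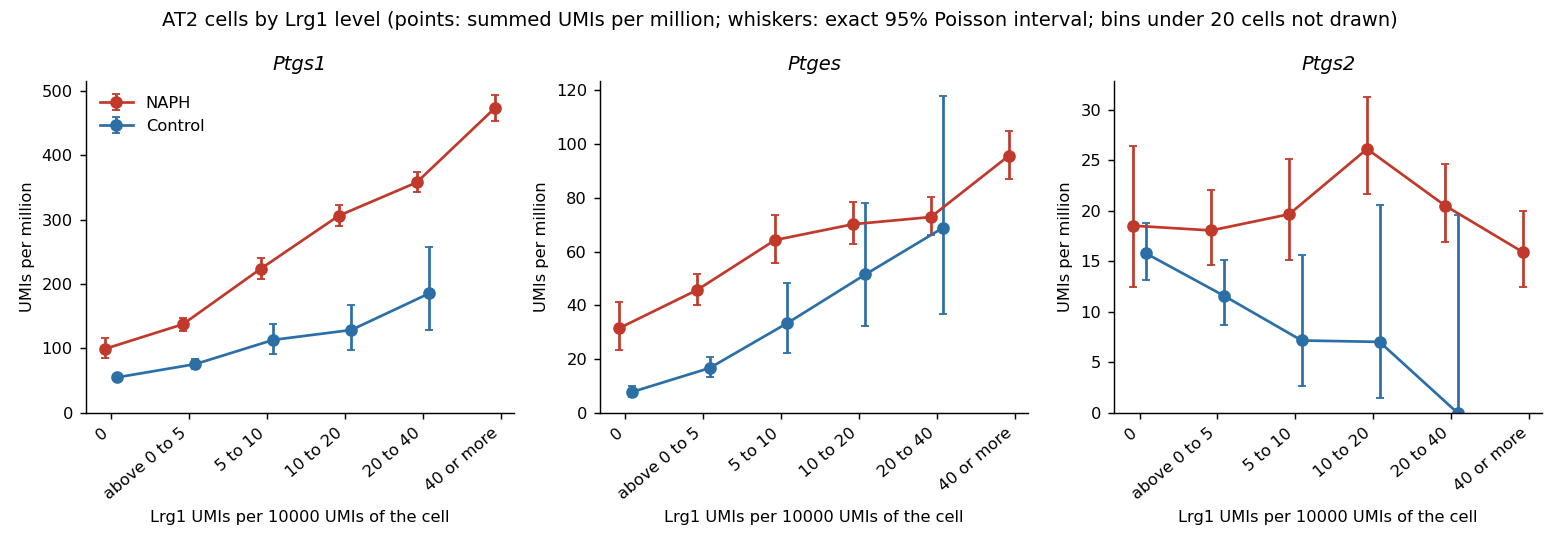
Ptgs1, Ptges and Ptgs2 in AT2 cells, in CPM (y axis), by Lrg1 UMIs per 10000 UMIs of the cell (x axis) in NAPH (red) and Control (blue), with exact 95% Poisson intervals and bins of under 20 cells left out. Ptgs1 and Ptges climb with Lrg1 in both libraries, and Ptgs2 does not.

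Ptgs2 instead went with Areg and Sprr1a, a ligand of the epidermal growth factor receptor and a precursor of the cornified envelope. AT2 cells with at least 2 UMIs of these genes together numbered 472 (18.8%) in NAPH and 95 (5.28%) in Control. In NAPH, Ptgs2 was at 44.8 CPM (39.2 to 50.9) in these cells and 13.3 CPM in the other AT2 cells, a ratio of 3.17 (2.64 to 3.79). In Control it was at 52.0 CPM (38.1 to 69.3) and 10.8 CPM, a ratio of 4.44 (3.12 to 6.23). Of all genes compared in NAPH, 8.61% were at least 1.5-fold higher and 6.53% lower in these cells, and in Control 10.5% and 14.7%. Of the 8 genes, 4 were compared in each library and 1, Ptgs2, was higher in both. In Control 2 were lower, Ptgs1 at 0.589 (0.418 to 0.808) and Alox5ap, on 1 and 72 UMIs, with an interval that includes 1.

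Within each class the interval of the NAPH over Control ratio of Ptgs2 included 1. The NAPH over Control ratio was 0.822 (0.597 to 1.15) in positive cells and 1.16 (0.947 to 1.43) in the other AT2 cells. Ptgs1 and Ptges stayed higher in NAPH in both classes, Ptgs1 at 6.78 (4.96 to 9.52) and 3.74 (3.49 to 4.01) and Ptges at 3.11 (1.97 to 5.23) and 4.51 (3.87 to 5.29). Of all genes compared in positive cells, 16.5% were at least 1.5-fold higher and 12.1% lower in NAPH, and in the other cells 8.89% and 10.2%.

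In NAPH the Ptgs2 level of positive cells was close in Lrg1-high (44.9 CPM, 180 cells) and Lrg1-low cells (44.7 CPM, 292 cells), and no Control cell was both positive and Lrg1-high. Positive cells were deeper, with medians of 10853.5 against 9332 UMIs in NAPH and 8851 against 7648 UMIs in Control, and its part in the ratios was not tested. In thinned NAPH Lrg1-high cells, Ptgs1 and Ptges were found together in 170 of 980 cells (17.3%), and the product of their shares is 16.3%. In thinned NAPH Lrg1-low cells they were found together in 8.14% of cells, against a product of 7.31%.

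**Figure D4:**
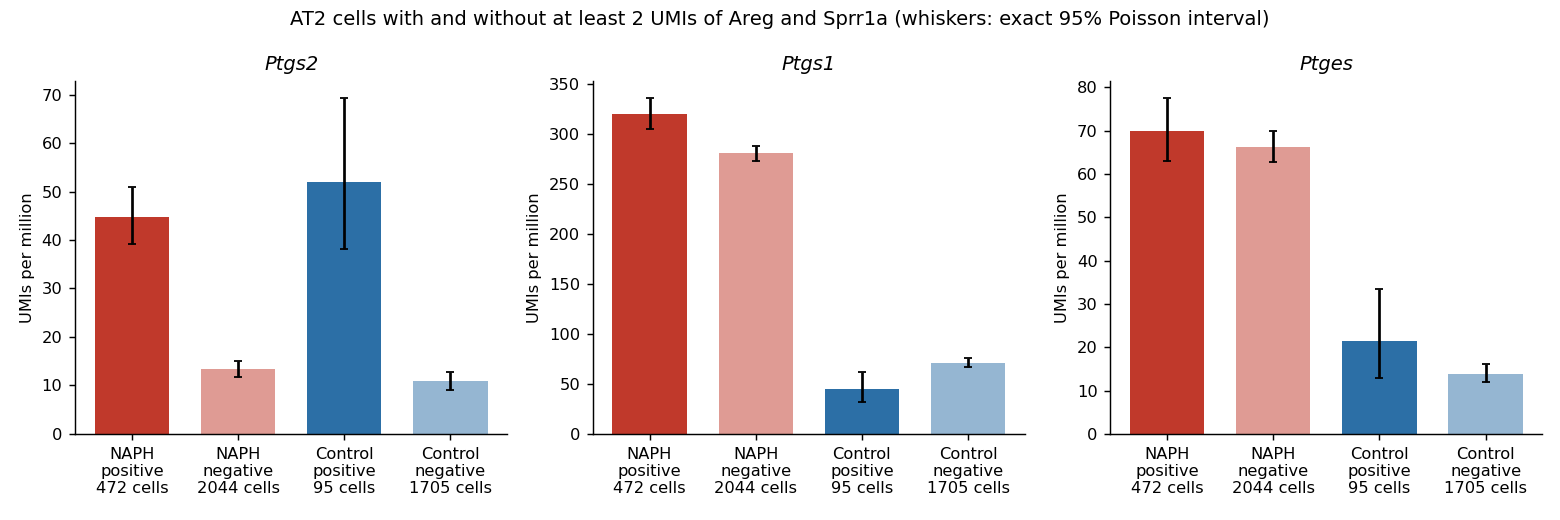
Ptgs2, Ptgs1 and Ptges in AT2 cells with (positive) and without (negative) at least 2 UMIs of Areg and Sprr1a, in CPM, by library, with exact 95% Poisson intervals. Ptgs2 is high in positive cells of both libraries, and Ptgs1 and Ptges are higher in NAPH in either class.

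In the airway gates Ptgs2 was higher in NAPH in both secretory and ciliated cells, Ptges was higher in secretory cells, and the degrading enzyme Hpgd was lower in secretory cells. In secretory cells Ptgs2 had 110 UMIs in NAPH and 108 in Control, 24.5 CPM (20.1 to 29.5) against 5.18 CPM (4.25 to 6.26), a ratio of 3.10 (2.36 to 4.08). Ptges had 139 UMIs in each library, 30.9 CPM (26.0 to 36.5) in NAPH against 6.67 CPM (5.61 to 7.88) in Control, a ratio of 3.04 (2.39 to 3.88). Hpgd was the reverse, with 24 UMIs and 5.34 CPM (3.42 to 7.95) in NAPH against 360 UMIs and 17.3 CPM (15.5 to 19.2) in Control, a ratio of 0.203 (0.128 to 0.307). With cells thinned to 3500 UMIs the ratios were 5.0 for Ptgs2, 2.73 for Ptges and 0.111 for Hpgd, and with plain CPM 4.72, 4.64 and 0.309. Markers of other cells differed between the libraries in this gate: the 6 goblet markers summed to 31227 CPM in NAPH and 10286 CPM in Control, the 7 AT2 markers to 26844 and 9878 CPM and the 6 AT1 markers to 1183 and 319 CPM. The AT2 list led in 17 NAPH cells of the gate and in no Control cell, and the part of such cells and of goblet cells in the 3 results was not tested. Secretory cells held 13.5% of the Hpgd UMIs of the NAPH library and 74.1% of those of the Control library.

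Of 7 genes compared in secretory cells, 4 were at least 1.5-fold higher (Ptgs1, Ptgs2, Ptges and Ltc4s), beside 12.5% of all 11204 genes compared, and 1 (Hpgd) was at least 1.5-fold lower, beside 13.1%. Without division by the median ratio, 5814 genes were higher and 461 lower, against 1403 and 1470 with it. Scgb1a1 alone took 350289 CPM of the NAPH and 596089 CPM of the Control secretory cells, so the same RNA of another gene reads lower in Control. Ptgs1, at 21.6 and 8.64 CPM with a ratio of 1.64 (1.27 to 2.11), lay below 0.2 times its AT2 level in both libraries, the limit set here for reach of free RNA. It was at 7.46% of that level in NAPH and 12.4% in Control, above the 4.77% and 1.17% of Sftpc. In secretory cells Ptges was at 46.1% of its AT2 level in NAPH and 46.4% in Control, and Ptgs2 at 123% and 38.7%. The surfactant genes gave 4.77% and 1.17% for Sftpc, 38.8% and 14.97% for Sftpa1 and 32.0% and 18.4% for Sftpb. In myeloid cells Sftpc was at 2.17% in NAPH and 0.896% in Control, and Sftpa1 at 2.93% and 1.17%. Club cells are also known to express Sftpb, and whether cells of this gate express Sftpa1 themselves was not tested. Neither Sftpa1 nor Sftpb is therefore taken as a measure of free RNA in secretory cells. The part of free RNA in the Ptgs1, Ptges and Ptgs2 levels was not tested. Ltc4s rested on 7 and 13 UMIs, with an interval of 0.554 to 4.42.

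Within the gate, 94 NAPH and 662 Control cells had the club list (6 markers, Scgb1a1 among them) as the list with the largest share detected. None of its markers was among the 10 genes highest in these cells against the rest of the gate in either library, and in NAPH those 10 held Krt15, Cxcl1 and Ccl20, so the cells are called here by the list alone and may differ between the libraries. Outside them, 71 of the 110 NAPH Ptgs2 UMIs lay in 86 NAPH cells with no leading list. In the cells of the club list Ptgs2 was at 18.2 CPM in NAPH and 5.25 CPM in Control (2.29), Ptges at 34.3 and 6.38 CPM (3.55) and Hpgd at 5.90 and 17.8 CPM (0.219), and none of the 3 intervals included 1. There, 3 of 5 genes compared were at least 1.5-fold higher, beside 11.7% of all genes, and 2 lower, beside 14.7%. The second of these, Alox5ap on 4 and 58 UMIs, is within reach of free RNA.

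A further 51 NAPH and 2 Control cells of no gate also had the club list in front, but the NAPH ones were led by Clca1, Muc5ac, Ccl20, Tff2 and Muc5b, of which Muc5ac and Muc5b are on the goblet list, and none of the club markers was among their first 10 genes. With them joined to the gate the ratios were 2.66 for Ptgs2, 2.77 for Ptges and 0.193 for Hpgd, and Ptgs1 was short of 1.5-fold at 1.43. Of 7 compared, 4 were higher, beside 13.5% of all genes, and 1 lower, beside 12.9%, and of the higher ones Ltc4s and Alox15 had intervals that include 1. Alox15 had 7 UMIs in NAPH and 22 in Control secretory cells, with a ratio of 0.968 (0.349 to 2.35). Over the whole libraries it had 29 UMIs in NAPH and 23 in Control. The Control UMIs lay in secretory cells except for 1, and in NAPH 12 lay in cells of no gate, 8 of these in the 51 cells led by Clca1 and Muc5ac.

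In ciliated cells Ptgs2 had 43 UMIs and 21.8 CPM (15.7 to 29.3) in NAPH against 3 UMIs and 2.54 CPM (0.524 to 7.43) in Control, a ratio of 7.91 (2.53 to 39.9). After thinning, 8.82% (5.31 to 13.6) of NAPH ciliated cells and 0 of 193 Control cells carried a UMI, and 3 counts would give the second a share of 1.55%. Myeloid cells, taken as the background for this gene, gave 0.396% in NAPH and 0.224% in Control, and median depths were 8067.5 and 5339 UMIs in ciliated cells. This background may be too low for ciliated cells. Sftpc was at 5.47% of its AT2 level in ciliated and 2.17% in myeloid cells of NAPH, and at 4.74% and 0.896% in Control. The 3 Control UMIs in ciliated cells lie within reach of free RNA.

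Areg and Sprr1a positive cells made up 59.8% of NAPH and 7.77% of Control ciliated cells, and in NAPH Ptgs2 was at 27.5 CPM in these and 13.5 CPM in the other ciliated cells, with overlapping intervals. Of the 8 genes, 4 were compared in ciliated cells and 2 (Ptgs1 and Ptgs2) were at least 1.5-fold higher, beside 17.5% of all genes, and 0 lower, beside 11.5%. Ptgs1, at 26.8 and 10.2 CPM, was again within reach of free RNA. Hpgd was at 16.7 CPM (11.5 to 23.4) in NAPH and 12.7 CPM (7.11 to 21.0) in Control, a ratio of 1.21 (0.642 to 2.41) that includes 1.

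The leukotriene genes were leukocyte genes in these libraries. Alox5ap had 3626 UMIs and 846 CPM (819 to 874) in NAPH myeloid cells, against 3566 UMIs and 949 CPM (918 to 981) in Control myeloid cells, a ratio of 0.915 (0.873 to 0.958). In the epithelial gates it was at 0.339% to 0.956% of that level. Coro1a and Cd52 were there at 0.245% to 1.40% of their myeloid level, and Ptprc at 0.497% to 1.98%. These 3 genes set the myeloid gate, so they are not an independent comparison. Alox5ap was therefore close between the libraries, while Alox5 and Ltc4s were lower in NAPH in the summed gate.

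Alox5 had 49 UMIs and 11.4 CPM (8.46 to 15.1) in NAPH, against 126 UMIs and 33.5 CPM (27.9 to 39.9) in Control myeloid cells, a ratio of 0.350 (0.246 to 0.490). Ltc4s had 171 UMIs and 39.9 CPM (34.2 to 46.4) in NAPH, against 501 UMIs and 133 CPM (122 to 146) in Control, a ratio of 0.307 (0.257 to 0.366). Hpgd was at 17.5 CPM (13.8 to 21.9) in NAPH and 27.1 CPM (22.1 to 33.0) in Control, a ratio of 0.662 (0.484 to 0.900). Of 6 genes compared, 3 (Alox5, Ltc4s and Hpgd) were at least 1.5-fold lower, beside 10.8% of all 11345 genes compared. The Hpgd call is lost with thinned cells (0.838), with the mean over cells (0.714) and with stricter gates (0.677). Another 2 (Ptgs1 and Ptges, both within reach of free RNA from AT2 cells) were at least 1.5-fold higher, beside 12.1%.

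Ltc4s and Alox5 came mostly from few cells. Cells led by the alveolar macrophage markers numbered 44 of 505 in NAPH and 93 of 447 in Control, and held 76.6% of the Ltc4s UMIs of the NAPH and 95.2% of those of the Control myeloid gate. For Alox5 the shares were 69.4% and 81.7%. The summed level of the 8 alveolar macrophage markers was 1154 CPM in the NAPH and 3043 CPM in the Control gate. In a summed gate, fewer cells of a type and less RNA per cell cannot be told apart, so the genes were also taken within these cells.

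Among the cells led by alveolar macrophage markers, Ltc4s was at 466 CPM (390 to 553) in NAPH and 746 CPM (681 to 816) in Control, a ratio of 0.618 (0.505 to 0.751). Of the genes compared there, 18.7% were at least 1.5-fold lower and 19% higher, and of the 8 genes 1 of 4 compared was lower and 1, Ptgs1 on 9 and 3 UMIs, higher. In NAPH, Ptgs1 was at 32.0 CPM (14.6 to 60.8) in these cells. It was at 5.59 CPM (2.79 to 10.0) in cells led by type 1 dendritic markers and 5.31 CPM (2.29 to 10.5) in those led by type 2. In Control these levels were 4.69, 1.65 and 1.81 CPM, with overlapping intervals. Alox5 was at 121 CPM (83.8 to 169) in NAPH and 161 CPM (132 to 195) in Control, a ratio of 0.743 (0.489 to 1.10), and Alox5ap at 854 and 948 CPM, a ratio of 0.891 (0.764 to 1.04), and both intervals include 1. Without these cells, Ltc4s in the rest of the gate was at 9.99 CPM in NAPH and 7.70 CPM in Control, a ratio of 1.27 (0.749 to 2.21), an interval that includes 1. Alox5 in the rest was at 3.75 and 7.37 CPM, a ratio of 0.498 (0.242 to 0.997). In those remaining cells 14.1% of all genes were at least 1.5-fold higher and 10.2% lower.

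Alox5ap was high in 3 of the 4 marker classes with over 15 cells in both libraries. Cells led by type 1 dendritic markers had 1044 CPM in NAPH and 1029 CPM in Control, and those with the type 2 dendritic list in front 796 and 806 CPM. The leading genes of the second class in NAPH held Col1a1, Col1a2 and Col3a1 and 1 marker of the list, Cd209a, so it may gather different cells in the libraries. In cells led by mature dendritic markers it had 9 UMIs in 27 NAPH cells and 8 UMIs in 16 Control cells, the second being 64.8 CPM. The 16 cells with T and NK markers of NAPH held 0 Alox5ap UMIs, where 3 counts would give 43.9 CPM.

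Hpgd in the myeloid gate lay mostly in the cells with the type 2 dendritic list in front, which held 86.7% of its UMIs in NAPH and 89.2% in Control. It was at 43.1 CPM (33.3 to 55.0) in the 191 NAPH cells and 164 CPM (132 to 202) in the 69 Control cells of this class, a ratio of 0.255 (0.183 to 0.354). Of the genes compared in these cells, 13.9% were at least 1.5-fold lower and 16.9% higher. Of the 8 genes, 2 of 4 compared were lower (Hpgd and Alox5) and 1 higher (Ltc4s, on 14 and 3 UMIs). The genes that stood highest in this class against the rest of the gate were not alike in the libraries: Eln, Sparcl1 and collagen genes were among the first 10 in NAPH, and Hpgd itself, Mmp12 and Itgam in Control, so the same marker list may gather different cells. The 5 fibroblast markers summed to 31.3 CPM in the NAPH and 1.60 CPM in the Control myeloid gate, and the part of such cells in the result was not tested. In NAPH cells of no gate, 25 of the 37 Hpgd UMIs lay in 5 cells with endothelial markers, and 1 cell of no gate held 22 UMIs.

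**Figure D5:**
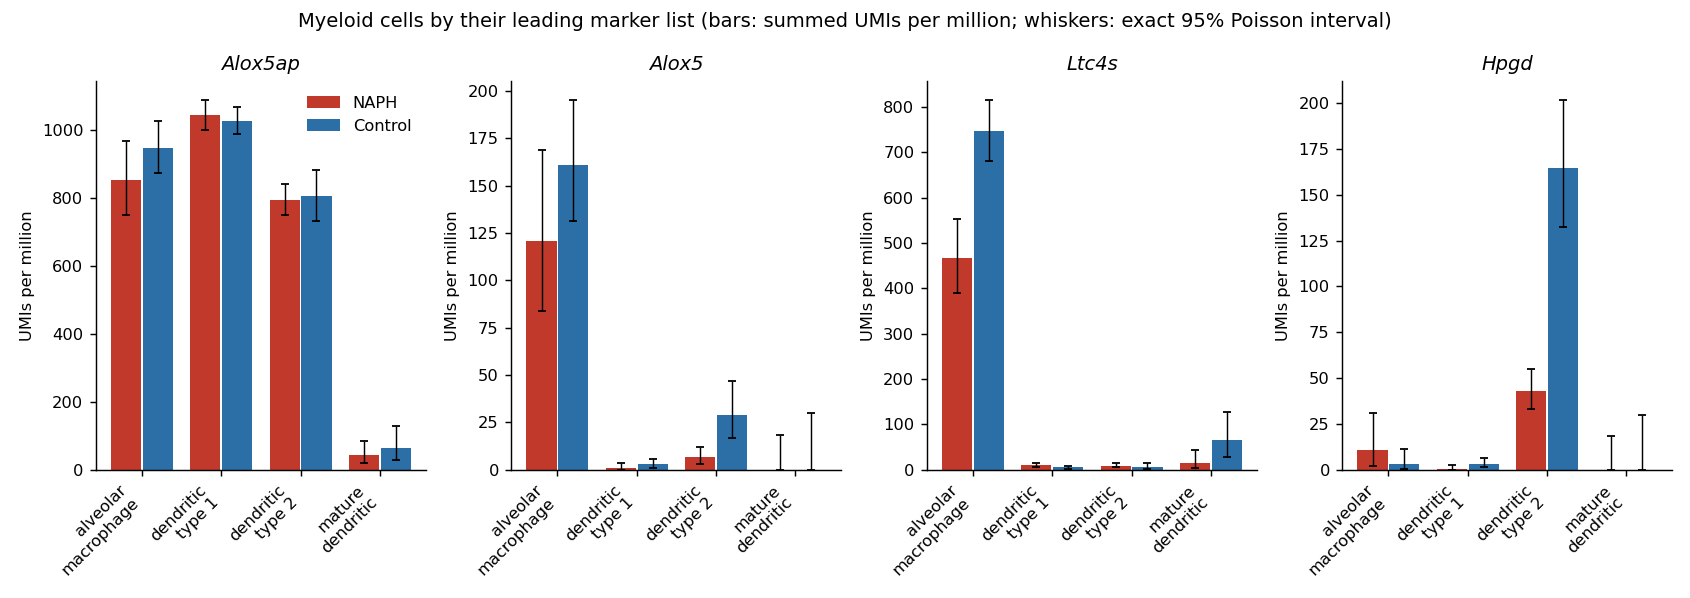
Alox5ap, Alox5, Ltc4s and Hpgd in myeloid cells grouped by their leading marker list, in CPM, by library (NAPH left, Control right), with exact 95% Poisson intervals. Ltc4s and Alox5 are concentrated in the alveolar macrophage marker cells and Hpgd in the type 2 dendritic marker cells.

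By level across the 4 gates, Ptgs1 was highest in AT2 cells in both libraries, followed by ciliated and secretory cells, which did not differ beyond their intervals, and by myeloid cells. Ptges followed the order AT2, secretory and then ciliated and myeloid cells, of which the last pair overlapped. Ptgs2 in NAPH was at 24.5 CPM in secretory, 21.8 CPM in ciliated and 19.9 CPM in AT2 cells, each neighbour overlapping the next, and at 1.40 CPM in myeloid cells, apart from them. In Control Ptgs2 was highest in AT2 cells, at 13.4 CPM, with its interval apart from those of the other gates. Hpgd in NAPH was at 17.5 CPM in myeloid and 16.7 CPM in ciliated cells, which overlapped, and at 5.34 CPM in secretory cells. In Control it was at 27.1 CPM in myeloid cells, with 17.3 CPM in secretory and 12.7 CPM in ciliated cells overlapping each other.

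Over 12 points (the 2 AT2 classes, the 3 other gates and cells of no gate, in each library) the genes with the most similar profile were found among 10227 genes by Pearson correlation of log2(CPM + 1). The points share libraries and differ in depth, and 2 of them hold under 30 cells, so r only ranks genes. For Ptgs1 they were Lrp2, Itih4 and Il33 (r of 0.98, 0.98 and 0.97). For Ptges they were Oat, Osmr and Cd200 (0.95, 0.94 and 0.94), and for Ptgs2 they were Hsf4, Tead4 and Jade3 (0.91, 0.90 and 0.89). For Hpgd they were Iqgap2, Plcb4 and AW112010 (0.95, 0.93 and 0.93), for Alox5ap Irf8, Ppp1r18 and Amica1 (0.98 each), and for Ltc4s Elmo1, Cd2 and Evl (0.99, 0.98 and 0.98). Alox5 and Alox15 had under 200 UMIs in all and were not searched.

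The 8 genes sit among 65 other genes of arachidonic acid release, prostanoid and leukotriene metabolism and their receptors. Of 36 compared in AT2 cells, 3 were at least 1.5-fold higher in NAPH, beside 10.2% of all genes, and 6 lower, beside 9.52%, with a median log2 ratio of -0.09 against 0 for all genes. The 3 higher ones had under 30 UMIs each. Of those with at least 30 UMIs, the lowest were Mgll, a lipase that frees arachidonic acid from monoacylglycerol (0.377, 17.2 CPM in NAPH and 42.7 CPM in Control), and Mgst2, a glutathione transferase that can also form leukotriene C4 (0.530, 8.01 and 14.2 CPM). They were followed by Pla2g12b, of the phospholipase family (0.582, 25 and 23 UMIs, with an interval that includes 1), and by Dpep2, a dipeptidase that trims leukotriene D4 (0.624, 12.7 and 19.1 CPM). The secreted phospholipase Pla2g1b, the most abundant gene of the release group in AT2 cells, was at 346 CPM (8630 UMIs) in NAPH and 519 CPM (7406 UMIs) in Control, a ratio of 0.624 (0.605 to 0.644). The genes with the most UMIs of the other groups in AT2 cells were Cbr2, a carbonyl reductase (2552 CPM in NAPH and 3541 CPM in Control), the glutathione transferase Mgst3 (70.1 and 56.1 CPM) and the leukotriene B4 receptor Ltb4r1 (4.49 and 3.01 CPM).

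In secretory cells 6 of 29 compared were higher, beside 12.5% of all genes, and 8 lower, beside 13.1%, with a median log2 ratio of -0.23. Higher in NAPH were Ggt5, which cuts leukotriene C4 (2.13, on 14 and 20 UMIs), and Akr1b3, an aldose reductase that can form prostaglandin F (1.81, 75.0 and 27.3 CPM). The transporter Slco2a1, which takes up prostaglandins (1.64, 9.13 and 3.65 CPM), and Dpep2 (1.62, 5.56 and 2.26 CPM) were also higher. Lower relative to the median gene were the phospholipase Pla2g6 (0.482), Abcc1, which exports leukotriene C4 (0.494), Dagla (0.652) and the carbonyl reductase Cbr2 (0.661), which was at 9494 CPM in NAPH and 9427 CPM in Control. The intervals of Ggt5, Dpep2 and Dagla include 1. By level, Cbr2 led its group, and the release group was led in secretory cells by Pla2g1b in NAPH (73.2 CPM) and Pla2g16 in Control (43.8 CPM), and the leukotriene group by Mgst3 in NAPH (60.8 CPM) and Mgst2 in Control (42.6 CPM). Receptors had at most 9 UMIs there. Without division by the median, 13 of these 29 genes were higher and 4 lower.

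In ciliated cells 10 of 25 compared were higher, beside 17.5% of all genes, and 2 lower, beside 11.5%, with a median log2 ratio of 0.31. Among those with at least 30 UMIs were Ggt5 (2.29), Pla2g6 (98 and 27 UMIs, 49.6 and 22.9 CPM), the prostaglandin reductase Ptgr1 (1.89, 32.9 and 16.1 CPM) and Abcc1 (1.56). The phospholipase Pla2g16 was lower, at 363 CPM in NAPH and 590 CPM in Control (0.570), as was Mgst2 (0.602). The intervals of Ggt5 and Abcc1 include 1. Pla2g16 also led its group by level, beside Cbr2 (6352 CPM in NAPH and 6758 CPM in Control) and Mgst3 (210 and 270.3 CPM), and receptors had at most 3 UMIs.

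In myeloid cells 9 of 37 compared were higher, beside 12.1% of all genes, and 9 lower, beside 10.8%, with a median log2 ratio of -0.14. Of 7 receptors compared, 1 was higher (the prostacyclin receptor Ptgir, on 10 and 2 UMIs), 4 lower and 2 between. The lower ones, of which Ptger2 and Ptger3 were named after their values were seen, as was Ptgir, were Fpr2, a receptor for lipoxin and formyl peptides (0.405, 10.5 and 26.6 CPM), the leukotriene B4 receptor Ltb4r1 (0.627, 35.5 and 58.0 CPM), Ptger2 (15 and 27 UMIs) and Ptger3 (0.159, 3 and 17 UMIs), both receptors of prostaglandin E2. The glutathione transferase Mgst3 (0.402, 37.3 and 95.3 CPM), Mgll (0.442) and the lysosomal phospholipase Pla2g15 (0.444) were lower as well. Ggt5 (3.73, 29 and 7 UMIs) and Pla2g12a (3.24, 21.0 and 6.65 CPM) were higher, and so was Pla2g1b (1.84), which is within reach of free RNA from AT2 cells. By level, the groups were led by Pla2g16 (45.5 CPM in NAPH and 57.7 CPM in Control), Cbr2 (361 and 266 CPM), which is within reach of free RNA, Ltb4r1, and Dpep2 in NAPH (51.1 CPM) or Mgst3 in Control. The alveolar macrophage marker cells, 44 in NAPH and 93 in Control, moved with these values, and their part was not tested for the genes outside the 8.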

How the data were processed

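Per the labels, single cells sorted by flow cytometry went into a droplet 3' kit. The deposited matrices hold unnormalized UMI counts, one value for a gene in a barcode, made with Cell Ranger on mm10, per the submitters' processing notes. Not given in the sources used here are its version, its cell calling and its treatment of strand. Of the gene IDs, 28339 of 28692 were found in GENCODE vM21, and promoters came from RefSeq (GRCm38.p6), which held 6 of the 8 genes.

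Barcodes with under 500 genes, under 1000 UMIs or over 20% mitochondrial UMIs were left out (4 NAPH, 0 Control). Scrublet's automatic threshold called 0.0815% and 0.243% of barcodes, so the expected rate of 0.8% per 1000 barcodes was used, which removed 108 NAPH and 87 Control barcodes. The libraries shared 14 barcodes. The lowest barcode held 3514 UMIs in NAPH and 4212 in Control. A cell could pass more than 1 gate: 10 NAPH and 5 Control cells passed both the AT2 and the secretory gate, 5 and 5 both the AT2 and the ciliated gate, and 1 and 1 both the secretory and the ciliated gate.

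UMIs were summed per gate and library. A gene at 0 in a group was placed at a floor of 3 counts over the group, and no direction was taken past no difference. Called means at least 1.5-fold from the median gene. A level below 0.2 times that in another gate of the same library was taken as within reach of free RNA. Marker classes were given by the list with the largest share of markers detected, at least 30%. The genes other than the 8 were named by a rule: of the 65 pathway genes, up to 4 highest and 4 lowest ratios per gate with at least 30 UMIs past 1.5-fold and the highest level of a role, and the 3 most similar profiles of each of the 8. The receptors Ptger2, Ptger3 and Ptgir in myeloid cells were named outside it, after their values were seen.

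The 8 genes and all lists were chosen with earlier results of these data known. The requirement of an expected count of 3, the split by Areg and Sprr1a and the Lrg1 bins were added after values were seen. The ratio step was tested on simulated counts. Tools were Python 3.11.15, scanpy 1.11.5 (Scrublet), scipy 1.17.1, and edgeR 4.0.16 in R 4.3.3 for TMM factors. Alternatives were other scalings, gates, filters, folds, thinning and doublet handling.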

Additional observations from a re-analysis of the deposited data

Results flagged for a closer look

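Among AT2 cells, Ptgs1 differed between cells with and without Areg and Sprr1a UMIs in opposite directions in the libraries. In NAPH it was at 321 CPM (306 to 337) in positive and 281 CPM (274 to 288) in the other AT2 cells, a ratio of 1.08 (1.02 to 1.14). In Control it was at 45.2 CPM (32.3 to 61.5) in positive and 71.1 CPM (66.6 to 75.7) in the other AT2 cells, a ratio of 0.589 (0.418 to 0.808). The difference between the libraries was not tested. The Lrg1 level was alike in the NAPH classes, at 2194 and 2221 CPM, and lower in positive Control cells, at 81.3 CPM against 199 CPM in the others, and its part was not tested.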

How the results depend on the processing

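For the 8 genes, 38 ratios were recomputed in 399 combinations of ratio and setting: 380 stayed within counting error, 17 moved and 2 turned round. No paired analysis was possible because each group is 1 library. The reversed values were Ltc4s in myeloid cells without alveolar macrophage marker cells (1.27) and Ltc4s in NAPH AT2 cells split at 10 Lrg1 UMIs (0.947). With cells thinned to 3500 UMIs, the ratio of Ptgs1 in AT2 cells was 3.51, of Ptgs2 in secretory cells 5.0 and of Hpgd in secretory cells 0.111. With plain CPM, Ptgs2, Ptges and Hpgd in secretory cells were 4.72, 4.64 and 0.309, and the NAPH Lrg1 split of Ptgs1 was 2.01. That split was 1.99 with Sftpc and Scgb1a1 left out of the totals and 2.47 when made at 10 UMIs, and in Control 3.93 with no filter on low counts. Alox5 in myeloid cells without alveolar macrophage marker cells was 0.498, an alternative chosen after seeing the data. In AT2 cells the pathway genes higher and lower numbered 8 and 10 with no filter and 1 and 2 at 2-fold. Of all genes, 2679 were lower with no filter, and 670 were higher and 495 lower at 2-fold. The cause of these moves was not tested beyond each setting's construction. There are no replicate libraries, so no value carries a spread between animals. Genes with few UMIs, such as Alox15, are limited by depth.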
